A study of Fukomys damarensis and Heterocephalus glaber and Mus musculus with 160 samples.

Results

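Liver and heart of the Damaraland mole-rat (Fukomys damarensis), a subterranean African rodent, were compared for H3K4me1, histone H3 carrying a single methyl group on lysine 4. All peak lists whose titles name this animal, 1 of these tissues and this mark were taken, which gave 5 liver and 5 heart lists, 10 of the 160 samples of the series and 10 of its 116 samples with a peak list. The series set 2 mole-rat species beside guinea pig and mouse by chromatin immunoprecipitation sequencing, in which crosslinked chromatin bound by an antibody is recovered and sequenced. All animals were wild-type adults with estimated ages of 36 or 48 months, and all were male except DMR6, a female. Liver lists came from DMR1 (48 months), DMR2 (36 months), DMR3 (36 months), DMR4 (48 months) and DMR6 (48 months), and heart lists from DMR1, DMR2, DMR3, DMR4 and DMR11 (48 months). The 10 libraries therefore came from 6 animals, 4 of which gave both tissues. Organs were diced, the liver after flushing with saline and the heart after clots were taken from the ventricles, so each library holds all cell types of its tissue and a place marked in few cells and a place marked weakly in many cells cannot be told apart.

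H3K4me1 is laid down by the methyltransferases KMT2C and KMT2D, also called MLL3 and MLL4, and spreads over the nucleosomes around enhancers. It marks enhancers that are active and enhancers that are primed but silent. Active ones also carry H3K27ac, acetylation of lysine 27, and active promoters carry H3K4me3, so that H3K4me1 alone does not say whether an element is in use. Enhancer marks differ between tissues more than promoter marks do, because tissue transcription factors choose the enhancers. In hepatocytes these include CEBPA, FOXA1, HNF4A, HNF6 and the nuclear receptor partner RXRA, and in cardiomyocytes they include TBX5.

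The 10 lists held 1228312 peaks. A peak list gives the start and end of each peak, its fold enrichment over the background (a linear ratio) and its significance, and no read numbers, so the sequencing depth is unknown. Liver lists held 130602 to 165394 peaks, with a median of 138248. Heart lists held 32893 to 158541, with a median of 92143, and the shortest list by far was that of heart DMR11. The list of heart DMR1 carries in its name a tag, 40M, that the labels do not explain. In the heart the order was DMR11 (32893), DMR3 (88163), DMR1 (92143), DMR4 (128455) and DMR2 (158541). Because a longer list reaches weaker peaks, tested comparisons were also made on the 32893 most significant peaks of each list. That is the number of the shortest list. The counts by number of lists, the mark and factor shares by region class and the named regions rest on all peaks only. The tissue labels were checked against the lists of liver factors, heart TBX5 and H3K27ac given with the region classes, since no gene annotation of the same genome build was used here. The liver factors and H3K27ac followed the labels, while TBX5 separated the classes less and adds little to this check. The library names fall into 2 series, do and vl, with liver DMR1, DMR2 and DMR4 and heart DMR2 and DMR4 in the first and the other 5 libraries in the second. What the series stand for is not stated in the labels, and values are given within them where they bear on a result.

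Liver peaks were wider. Over all peaks, the median width was 580 bases in liver DMR1, 629 in DMR2, 428 in DMR3, 565 in DMR4 and 460 in DMR6. In the heart it was 457 bases in DMR1, 411 in DMR2, 433 in DMR3, 409 in DMR4 and 371 in DMR11. Liver DMR3 lay inside the heart range and the other 4 liver libraries lay above it, liver DMR6 by 3 bases only. On the log2 scale the tissues differed by 0.34, a 1.27-fold greater width in liver (two-sided exact permutation test over 5 and 5 libraries, p = 0.0317, Benjamini-Hochberg adjusted p = 0.0476 over 6 comparisons). The smallest p that 5 against 5 allows is 0.00794. The test exchanges libraries as if they were separate animals, and with the 4 animals that gave both tissues as a block the difference was 0.35 in the same direction, where the smallest p is 0.125. The call was lost when liver DMR1, DMR2 or DMR4 or heart DMR2, DMR3, DMR4 or DMR11 was left out, with differences of 0.28 to 0.36 and adjusted p of 0.0571 to 0.107. Within the vl series the tissues overlapped, and a test that exchanged libraries within a series gave a difference of 0.31 and an adjusted p of 0.06.

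The difference was larger among equally many top peaks. The median width of the 32893 most significant peaks was 1260, 1640, 778, 1244 and 973 bases in liver DMR1, DMR2, DMR3, DMR4 and DMR6, and 671, 813, 618, 716 and 371 bases in heart DMR1, DMR2, DMR3, DMR4 and DMR11. Only liver DMR3 and heart DMR2 crossed, and within each series every liver library lay above every heart library. Liver top peaks were 1.85-fold wider (log2 difference 0.89, exact permutation p = 0.0159, adjusted p = 0.0238). Peaks of at least 1 kb made up 58.0% ± 17.2 of them in liver and 23.3% ± 12.5 in heart (SD, n = 5 each). These peaks covered 48.8 ± 13.9 Mb in liver and 26.5 ± 7.33 Mb in heart (SD, n = 5 each), a 1.85-fold difference (exact permutation p = 0.0159, adjusted p = 0.0317). With the animals as a block it was 0.75 on the log2 scale (exact permutation p = 0.125, the smallest possible). The covered length was no longer called when liver DMR1, DMR2 or DMR4 or heart DMR11 was left out (log2 differences of 0.85, 0.75, 0.85 and 0.62, adjusted p of 0.0595 to 0.0635). With heart DMR11 set aside and the number raised to 88163 peaks, the width difference was 0.61 and the covered length difference 0.62, both with an adjusted p of 0.0317. Significance moved with width: the last of the 32893 peaks had a −log10 p of 9.80 to 20.5 in liver and 3.33 to 10.7 in heart. The part of this, and of depth, in the tissue difference was not tested.

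**Figure D1:**
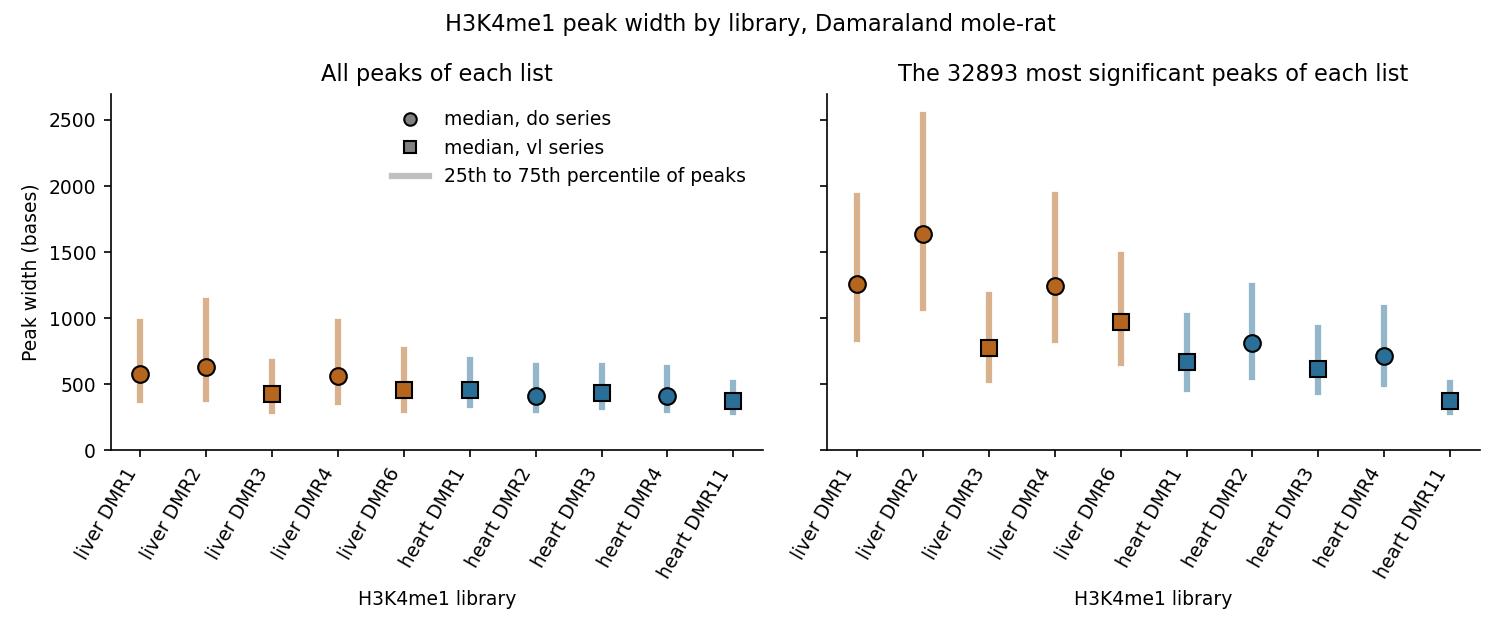
Width of H3K4me1 peaks in bases for each library, for all peaks (left) and for the 32893 most significant peaks of each list (right). Points are medians, bars run from the 25th to the 75th percentile of the peaks, and the symbol gives the library series. On the right, liver medians run from 778 to 1640 bases and heart medians from 371 to 813 bases.

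The liver lists repeated each other more closely than the heart lists did. Of the 32893 top peaks, 85.4% to 89.1% of a liver list had a peak in at least 1 other liver list, against 66.2% to 72.9% in heart, so the tissues did not overlap. A peak counts as found in another list when the overlap reaches 50% of the shorter peak. Top peaks found in all 4 other lists of the tissue made up 31.7% ± 1.86 in liver and 13.0% ± 0.506 in heart (SD, n = 5 each), and those found in none of the 9 other lists 9.90% ± 1.33 in liver and 22.6% ± 3.01 in heart. Shared bases as a fraction of all bases that either of 2 lists covered, the Jaccard index, had a median of 0.375 over 10 liver pairs, 0.238 over 10 heart pairs and 0.109 over 25 pairs of a liver with a heart list at this equal number. With all peaks these medians were 0.46597, 0.255 and 0.138. Without heart DMR11 the heart pairs had a median of 0.264 with all peaks and 0.255 with top peaks. No test was made of these values, since pairs share libraries.

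Liver and heart lists of the same animal were set against those of different animals. Over the 4 animals with both tissues, the mean Jaccard index was 0.1501 within an animal and 0.1452 between animals. The difference of 0.00490 gave p = 0.0833 in a one-sided exact permutation test over the 24 ways of matching the 4 hearts to the 4 livers, where the smallest possible p is 0.0417, so a closer overlap within an animal was not shown.

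A catalogue of regions was made from the bases covered by at least 2 lists of a tissue, joined over the tissues, with a length of at least 100 bases. It held 207659 regions, of which 148141 had a peak in at least 2 liver lists and 101373 in at least 2 heart lists. Both applied to 41855 regions, 28.3% of the liver and 41.3% of the heart regions. Another 87579 regions had at least 2 liver lists and no heart list, and 50026 had at least 2 heart lists and no liver list. With the 32893 top peaks only, the liver and heart regions numbered 37581 and 33114, and the 11147 in both were 29.7% and 33.7% of them. A region without a peak in a list is one where no peak passed the caller's threshold.

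The number of lists that held a region differed in shape between the tissues. Among regions with no heart list, 32393 were held by 2 liver lists, 16601 by 3, 14798 by 4 and 23787 by all 5, so the counts fell and rose again. Among regions with no liver list, 32924 were held by 2 heart lists, 10324 by 3, 5080 by 4 and 1698 by all 5, a steady fall. All 10 lists held 7690 regions, with a median region length of 2720 bases. The regions of all 5 lists of a single tissue were of similar length, with medians of 1148 bases for liver and 1176 bases for heart. Heart DMR11 limits the heart counts, since a region missing from its short list cannot reach 5 lists. Without it, the regions with at least 2 heart lists numbered 98716 and those shared with liver 41126, 27.8% of the liver and 41.7% of the heart regions.

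**Figure D2:**
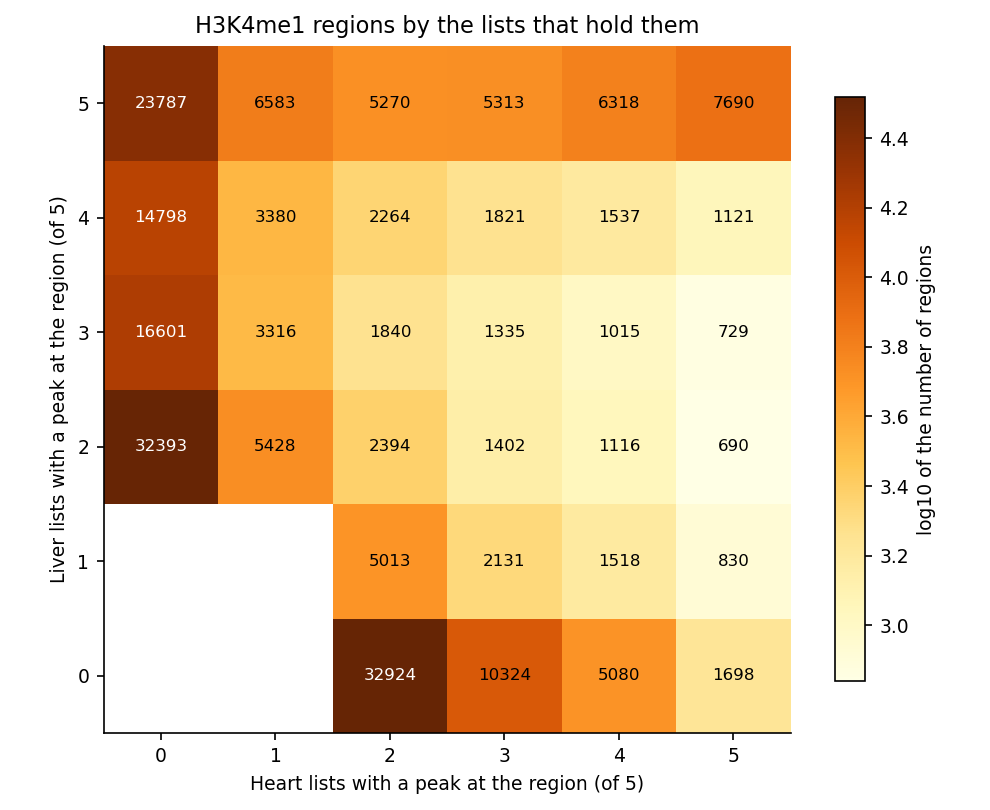
Number of H3K4me1 regions by how many of the 5 liver lists (vertical) and 5 heart lists (horizontal) had a peak there, with colour on a log10 scale. The left column, regions with no heart list, falls from 32393 to 14798 and rises to 23787 at 5 liver lists, while the bottom row, regions with no liver list, falls from 32924 to 1698 at 5 heart lists. Cells with fewer than 2 lists of both tissues are empty by construction.

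A smaller share of liver peaks than of heart peaks was found in the other tissue. A peak counted as found there when at least 2 of the 5 lists of the other tissue had it. The share was 28.9% in liver DMR1, 28.5% in DMR2, 28.6% in DMR3, 29.1% in DMR4 and 26.6% in DMR6. In the heart it was 42.7% in DMR1, 38.0% in DMR2, 48.0% in DMR3, 38.5% in DMR4 and 59.9% in DMR11. The ranges did not overlap, and the difference was -17.1 percentage points (two-sided exact permutation test over 5 and 5 libraries, p = 0.00794, the smallest possible, adjusted p = 0.0317). With the 4 paired animals as a block it was -13.1 points (exact permutation p = 0.125, the smallest possible). List length moved with this share: the shortest list, heart DMR11, had the highest share, and the 2 longest heart lists had the lowest. At equal numbers of top peaks, liver lists had 25.3% to 29.1% and heart lists 27.5% to 34.6%, a difference of -4.52 points (exact permutation p = 0.0317, adjusted p = 0.0317), with overlapping ranges. With 88163 peaks and without heart DMR11 the difference was -7.42 points (adjusted p = 0.0238) and the ranges did not overlap. Leaving out liver DMR1, DMR2 or DMR4 from the comparison of all peaks gave -14.3, -11.3 and -14.6 points and adjusted p of 0.0595 to 0.0635.

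Over all peaks, those found in both tissues were wider, ranked higher by fold and more often carried H3K27ac than peaks of a single tissue. This held in all 10 lists. Among the top peaks it did not hold for H3K27ac in liver or for fold in heart DMR1, as given below. A single-tissue peak here is one with a peak in none of the 5 lists of the other tissue. In liver the median width of peaks found in both was 832, 951, 559, 809 and 641 bases in DMR1, DMR2, DMR3, DMR4 and DMR6, against 506, 541, 386, 493 and 411 bases for liver-only peaks. In heart it was 541, 535, 505, 509 and 397 bases in DMR1, DMR2, DMR3, DMR4 and DMR11, against 405, 354, 380, 360 and 336 bases for heart-only peaks. The mean over the 6 animals was a log2 ratio of 0.54, or 1.45-fold (two-sided exact sign-flip permutation test over 6 animals, p = 0.03125, the smallest possible, adjusted p = 0.03125 over 3 contrasts). The rule of overlap favours wide peaks, and when the summit of the own peak had to lie inside the other peak the ratio fell to 0.35 with the same p.

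The percentile of fold within a list, where 100 is the strongest peak, averaged 57.7 to 59.7 for liver peaks found in both tissues and 45.5 to 46.2 for liver-only peaks. In heart these were 52.7 to 58.1 and 43.8 to 46.3. The mean difference over the 6 animals was 11.3 percentiles (exact permutation p = 0.03125, adjusted p = 0.03125). It was 9.83 percentiles among peaks also found in another list of their own tissue, and 6.49 at equal numbers of top peaks. Peaks near the caller's threshold may be missing from other lists, and the part of this in the contrast was not tested. An H3K27ac peak of the same animal and tissue lay at 38.8% to 53.2% of liver peaks found in both and at 29.9% to 43.4% of liver-only peaks, and at 26.99% to 56.1% and 19.2% to 47.1% of the corresponding heart peaks. The mean difference was 11.2 percentage points (exact permutation p = 0.03125, adjusted p = 0.03125), and it was 6.75 points among peaks also found in another list of their own tissue. At equal numbers of top peaks it was 1.44 points (exact permutation p = 0.25). H3K27ac peaks were matched by the same overlap rule, which favours wide peaks, and the part of width was not tested. With only the 4 animals that gave both tissues the 3 contrasts were 0.59, 11.9 percentiles and 13.1 points, where the smallest p is 0.125. Without liver DMR6 or heart DMR11 only 5 animals remain and p cannot fall below 0.0625; the contrasts then were 0.52 and 0.61, 11.1 and 12.1 percentiles, and 11.5 and 12.3 points.

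The width contrast was steeper in liver than in heart, by 0.25 on the log2 scale (0.68 ± 0.104 in liver and 0.43 ± 0.131 in heart, SD, n = 5 each; exact permutation p = 0.0159, adjusted p = 0.0317). Median width was 386 to 541 bases at liver peaks found in no heart list and 918 to 1756 at those found in all 5, and in heart 336 to 405 and 426 to 676 bases, over 5 libraries each. This difference between the tissues changed with the way in which overlap was counted. It was 0.046 under the summit rule (exact permutation, adjusted p = 0.495) and 0.15 when 1 base of overlap sufficed (adjusted p = 0.0595). With the 4 paired animals as a block it was 0.21 (exact permutation p = 0.125, the smallest possible). It was also no longer called without liver DMR1, DMR2 or DMR4 or heart DMR11 (0.23, 0.21, 0.23 and 0.22, adjusted p of 0.0595 to 0.0635). The call was kept at equal numbers of top peaks (0.23) and with −log10 q from 4 upwards (0.29). With at least 3 lists of the other tissue the difference was 0.41. Each of these had an exact permutation adjusted p of 0.0238. The tissues differed by 2.73 percentiles in the fold contrast (adjusted p = 0.114) and by -3.76 points in the H3K27ac contrast (exact permutation p = 0.349), neither of which passed. The fold contrast passed without heart DMR1 or DMR2, at 3.69 and 5.22 percentiles with adjusted p of 0.0476 and 0.0159.

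**Figure D3:**
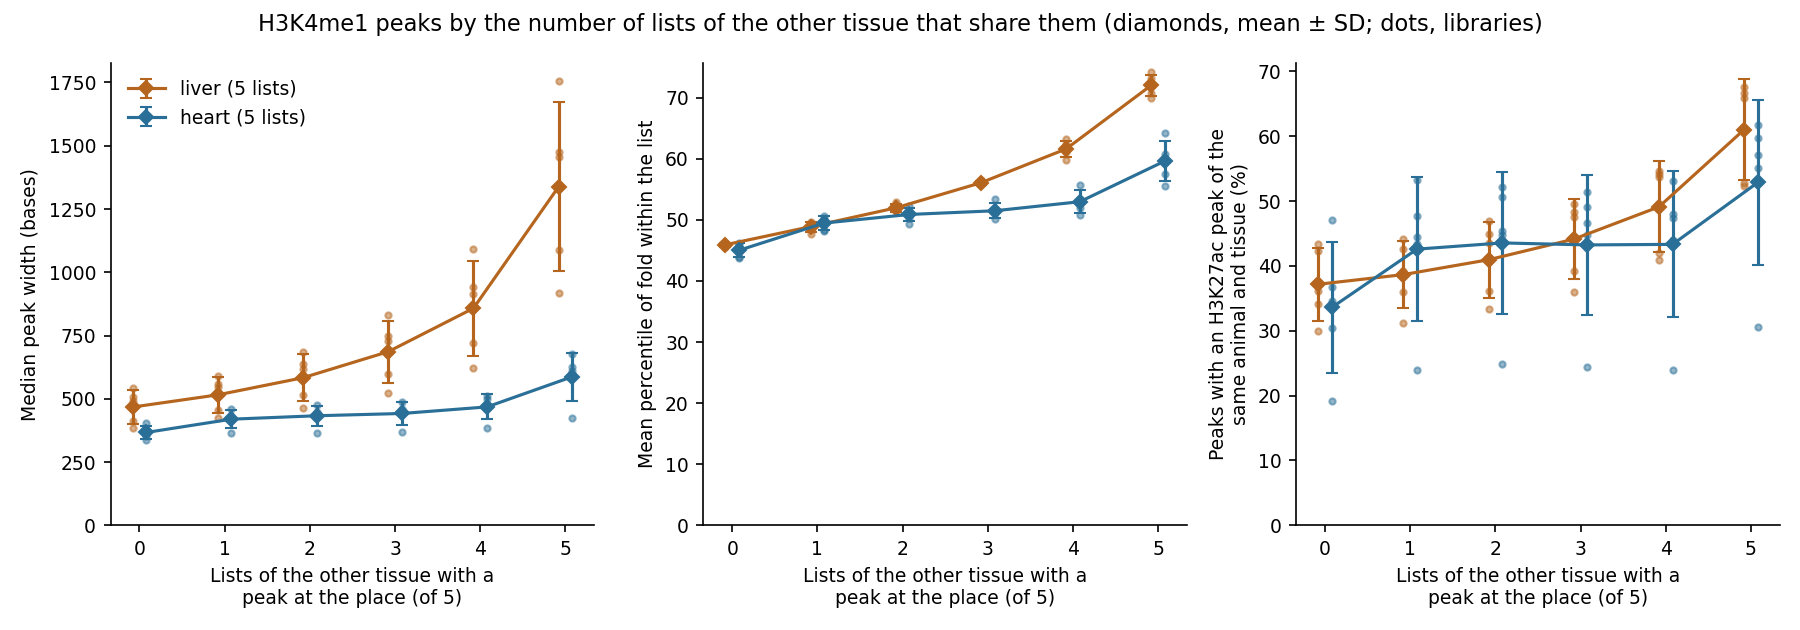
H3K4me1 peaks grouped by how many of the 5 lists of the other tissue had a peak there (horizontal): median peak width in bases, mean percentile of fold within the list, and percent of peaks with an H3K27ac peak of the same animal and tissue. Diamonds are means with SD over 5 libraries and dots are libraries. Width reaches 1338 bases in liver and 587 bases in heart at 5 lists.

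Among the top peaks the tissues went opposite ways in H3K27ac. In every liver list the 32893 most significant peaks found in both tissues carried H3K27ac less often than those found in liver only, by 1.22 to 6.07 percentage points. In liver DMR1 the shares were 74.0% and 80.1%, in DMR2 79.2% and 82.0%, in DMR3 61.9% and 63.2%, in DMR4 78.8% and 83.4%, and in DMR6 62.6% and 63.9%. In every heart list the peaks found in both carried it more often, by 1.84 to 8.43 points. In heart DMR1 the shares were 36.6% and 34.7%, in DMR2 73.6% and 65.7%, in DMR3 62.1% and 56.2%, in DMR4 75.1% and 66.7%, and in DMR11 55.1% and 49.9%. The contrasts did not overlap, at -3.21 ± 2.11 points in liver and 5.86 ± 2.61 points in heart (SD, n = 5 each; difference -9.07 points, exact permutation p = 0.00794, adjusted p = 0.0238), and their mean over animals was 1.44 points (exact permutation p = 0.25). With 88163 peaks and without heart DMR11 the contrast was above 0 in all 9 lists, at 4.18 ± 2.64 points in liver (n = 5) and 12.1 ± 5.15 in heart (n = 4), and the tissues differed by -7.87 points (adjusted p = 0.0317). The fold contrast at 32893 peaks was above 0 in 9 of 10 lists, all but heart DMR1 (-0.507 percentiles).

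Regions held by a whole tissue and by no list of the other had H3K27ac more often in their own tissue than in the other. Of the 23787 regions in all 5 liver and no heart lists, 64.6% ± 5.30 had an H3K27ac peak in a liver library and 4.15% ± 1.80 in a heart library (SD over 5 libraries each). Of the 1698 regions in all 5 heart and no liver lists, 75.04% ± 13.2 had H3K27ac in a heart library and 5.65% ± 1.60 in a liver library. Regions in all 10 lists had it in 67.6% ± 6.14 of liver and 71.1% ± 12.1 of heart libraries' counts. Over all regions of the catalogue the background was 28.3% ± 3.81 in liver and 23.9% ± 7.13 in heart. The lowest heart share in all 3 classes came from DMR1, whose H3K27ac list is the shortest with 51446 peaks, at 1.56%, 52.5% and 50.9%. H3K4me3, the promoter mark, had a peak at 31.8% of the regions in all 10 lists in liver (n = 2) and in heart (n = 5). It was at 6.02% of the all-liver regions in liver and at 3.92% of the all-heart regions in heart. Both lay below the background over all regions, 7.59% in liver and 7.28% in heart.

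H3K27ac peaks were also counted at regions of a single tissue in the wider class, held by 2 or more of its lists. A missing peak is one that did not pass the caller's threshold. Of the 87579 regions with at least 2 liver lists and no heart list, 47.7% had no H3K27ac peak in any of the 10 H3K27ac lists, 32.8% had it in at least 2 liver and no heart lists, and 1.52% had it in at least 2 heart and no liver lists. Of the 50026 heart regions with no liver list these were 40.4% without an H3K27ac peak, 36.2% with it in heart and 0.448% with it in liver. Regions held by only 2 lists, 32393 for liver and 32924 for heart, were short, with medians of 268 and 282 bases. These states were not counted over all regions of the catalogue, so whether the 47.7% and 40.4% differ from the general share is not known. Among the 41855 regions of both tissues, 43.1% had H3K27ac in at least 2 lists of each tissue. Another 7.12% had it in liver only, 11.98% in heart only and 15.7% in none. Regions with H3K4me1 in both tissues could therefore have H3K27ac peaks in the lists of a single tissue.

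Liver factors lay at a larger share of the liver-only than of the heart-only regions, and at a still larger share of the regions of all 10 lists. CEBPA, FOXA1 and RXRA each have a list from liver DMR1 and from DMR4, HNF4A, HNF6 and TBX5 have 1 list each, and shares carry Wilson 95% intervals that cover counting error only. CEBPA, a liver and fat cell regulator, had a peak in DMR1 at 11.8% (11.4% to 12.3%) and in DMR4 at 33.5% (32.9% to 34.1%) of the regions in all 5 liver and no heart lists. At the regions in all 5 heart and no liver lists it had 1.47% (0.999% to 2.16%) in DMR1 and 1.18% (0.764% to 1.81%) in DMR4. RXRA had 12.0234% in DMR1 and 30.0% in DMR4 of the liver regions, and 0.824% and 0.883% of the heart regions. FOXA1, which opens closed chromatin, had 8.27% in DMR1 and 6.37% in DMR4 of the liver regions, and 0.707% and 1.12% of the heart regions. For CEBPA and RXRA the DMR4 list gave the larger liver share and was also the longer list, with 75849 against 41372 and 53184 against 40759 peaks. HNF4A, a nuclear receptor of hepatocytes, had 17.2% (16.8% to 17.7%) of the liver and 3.65% (2.86% to 4.65%) of the heart regions, and HNF6 had 11.6% and 2.77%.

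All 8 liver factor lists were higher at the regions of all 10 lists than at the liver-only regions. There CEBPA had 14.6% in DMR1 and 37.0% in DMR4, RXRA 20.7% and 42.7%, FOXA1 9.02% and 10.5%, HNF4A 30.4% and HNF6 12.7%. Over all 207659 regions the background was 4.84% and 14.3% for CEBPA, 5.01% and 12.5% for RXRA, 3.01% and 2.70% for FOXA1, 8.13% for HNF4A and 5.08% for HNF6. In the wider class of at least 2 liver and no heart lists, CEBPA had 5.93% in DMR1 and 18.7% in DMR4, and FOXA1 3.72% and 2.77%. RXRA had 4.98% and 13.5% there, HNF4A 7.69% and HNF6 6.52%. In that class RXRA in DMR1 and HNF4A lay below the background, and FOXA1 in DMR4 was close to it. Regions of all 10 lists are longer, with a median of 2720 against 1148 bases, and the part of length in these shares was not tested.

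TBX5, a heart development factor measured in the heart of DMR6, separated the classes less. It had a peak at 13.2% (11.7% to 14.9%) of the regions in all 5 heart and no liver lists, at 6.58% (6.27% to 6.90%) of those in all 5 liver and no heart lists, and at 20.5% of those in all 10 lists. In the wider classes of at least 2 lists it was at 4.60% of the heart-only and 4.04% of the liver-only regions, both below the 5.57% of all regions. The TBX5 list held 139418 peaks, more than the 19398 to 75849 of the liver factors.

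The strongest regions of each tissue are given as a description, since fold chose them, and the liver class is the larger and liver folds were higher over the whole lists (90th percentile 8.34 ± 0.422 in liver and 6.46 ± 0.325 in heart, SD, n = 5 each). Among regions in all 5 liver and no heart lists, the highest mean percentile of fold was at KN121328.1:2688736-2691961 (build DMR_v1.0, positions counted from 1), with folds of 15.1, 21.0, 18.1, 20.8 and 19.5 in liver DMR1, DMR2, DMR3, DMR4 and DMR6. It had H3K27ac in 5 of 5 liver and 0 of 5 heart lists, H3K4me3 in both liver lists, and peaks of HNF4A and RXRA. Next came KN122104.1:14556258-14561154, with folds of 17.2, 19.8, 18.1, 17.3 and 15.8, H3K27ac in the 5 liver lists and peaks of CEBPA, FOXA1 and RXRA. The third, KN107550.1:1-1400, lies at the start of its scaffold, with folds of 22.4, 19.6, 16.9, 20.6 and 13.7 and peaks of CEBPA, FOXA1, HNF4A and RXRA. All 3 were in the top percentile of every liver list, at 99.4 or above.

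Among regions in all 5 heart and no liver lists, the highest mean percentile was at KN122390.1:5523831-5526245, with folds of 7.74, 8.74, 8.43, 7.35 and 9.59 in heart DMR1, DMR2, DMR3, DMR4 and DMR11. It had H3K27ac in 5 of 5 heart and 0 of 5 liver lists, no H3K4me3 peak and a TBX5 peak. KN120660.1:2308975-2311441 had folds of 8.84, 10.2, 7.68, 13.0 and 6.72, and KN122776.1:6342383-6343889 had 12.5, 9.84, 10.1, 11.9 and 6.32. Both had H3K27ac in all 5 heart and no liver lists and no peak of any factor, and heart DMR11 gave the lowest fold in both. The widest region of the heart class, KN120660.1:2299844-2306365 with 6522 bases, lies less than 3 kb before the second of these. The widest region of the liver class, KN122458.1:2613656-2629638 with 15983 bases, had folds of 9.87 to 14.9, H3K27ac in the 5 liver lists and peaks of 5 liver factors and TBX5.

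**Figure D4:**
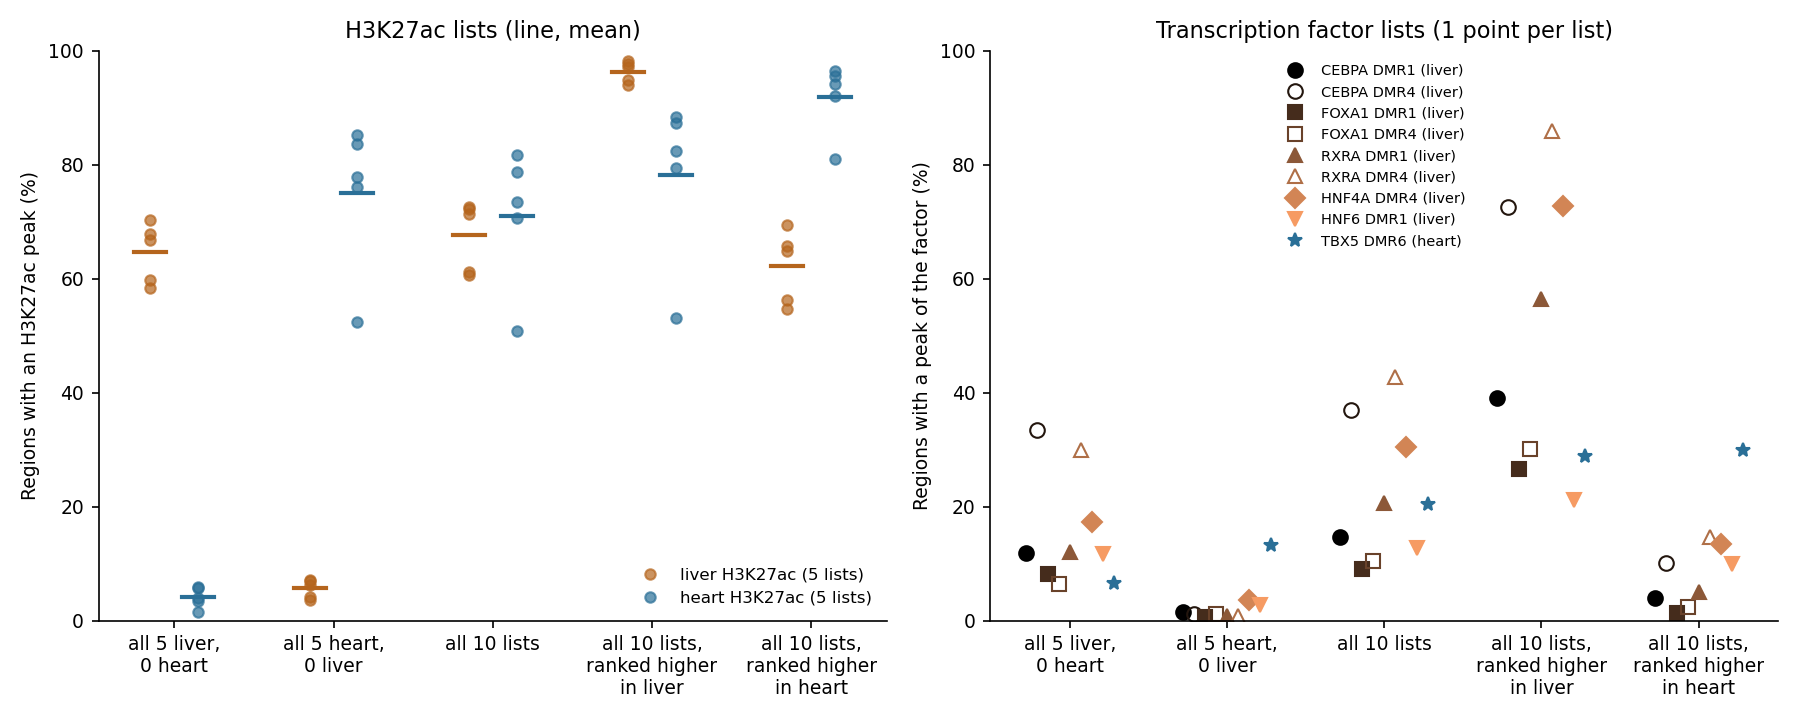
Percent of H3K4me1 regions with an H3K27ac peak in each of the 5 liver and 5 heart H3K27ac lists (left, lines are means) and with a peak in each transcription factor list (right, 1 point per list), for regions held by a single tissue, by all 10 lists, and for the regions of all 10 lists ranked higher in liver or in heart. H3K27ac is at 64.6% in liver and 4.15% in heart for the liver class, and at 5.65% and 75.04% for the heart class.

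The 7690 regions found in all 10 lists were then compared by how strongly each tissue marked them. In each list the regions were ranked by the highest fold of the peaks there, so that 100 is the strongest of the 7690. In a long region the highest peak may lie at different places in liver and heart. The part of region length in the ranks was not tested. Ranks turned into normal scores were compared with limma (Benjamini-Hochberg adjusted p at most 0.05 over all 7690). The test called 790 regions, 10.3% of those tested. Of these, 346 ranked higher in liver, 4.50% of the tested, and 444 ranked higher in heart, 5.77%. The median rank difference was 46.8 percentiles at the regions called for liver and 52.2 at those called for heart, and over all regions the median size was 15.5. At 657 regions, 8.54%, the 5 liver ranks and the 5 heart ranks did not overlap, and 203 of the 346 and 295 of the 444 called regions were among them. Lists of a tissue ranked the regions alike to unequal degrees: Spearman's rho across the 7690 regions, which are not independent replicates, had a median of 0.510 over 10 liver pairs, 0.290 over 10 heart pairs and 0.186 over 25 pairs of a liver with a heart list.

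The number of calls depended on which peaks entered. With the animal as a block it was 595, and 515 of the 790 were called again. With the library series as a term it was 694, and 665 of the 790 were called again. Leaving out each library in turn gave 580 to 1018 calls, and 548 to 649 of the 790 were called again. Ranking by significance gave 1468 calls, of which 717 were higher in liver and 751 in heart, and included 786 of the 790. Restricted to the top 32893 peaks of each list, 1733 regions remained and 28 were called, 14 in each direction, and 26 of the 89 called regions still tested were among them. With 88163 peaks and without heart DMR11, 7868 regions were tested and 351 called, and 227 of the 435 called regions still tested were among them. An unadjusted p under 0.05 was reached by 1867 regions in the comparison of all peaks.

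**Figure D5:**
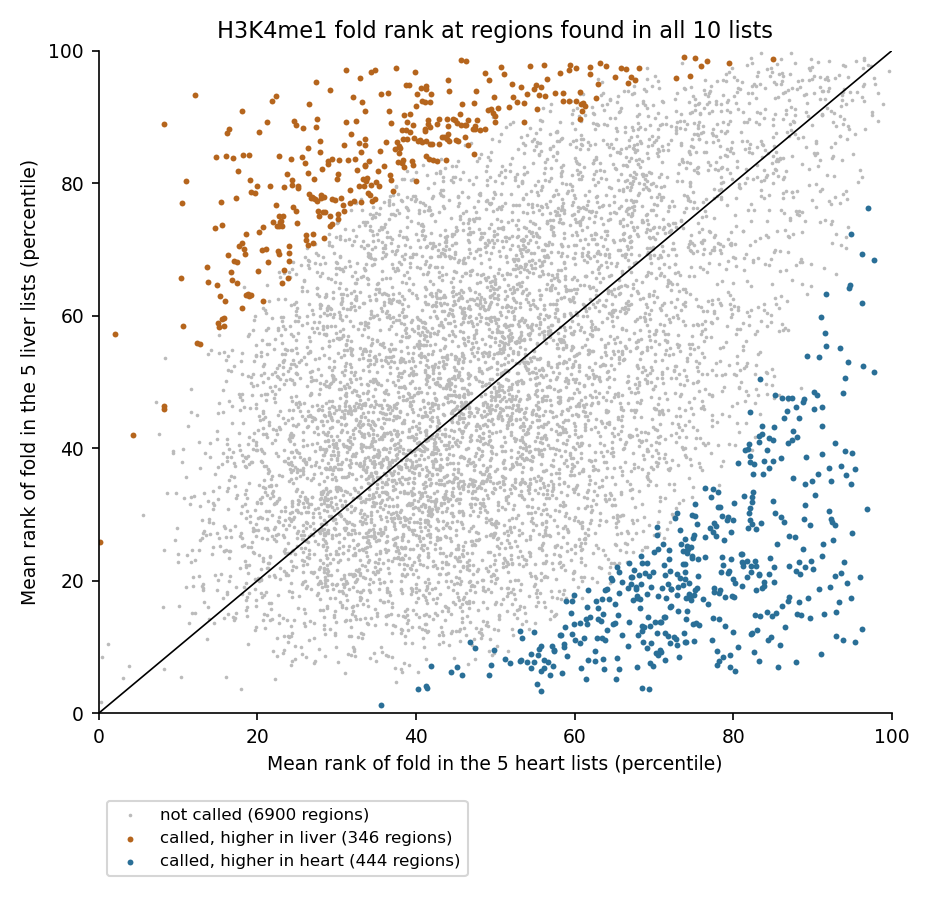
Mean rank of H3K4me1 fold in the 5 heart lists (horizontal) and the 5 liver lists (vertical) at the 7690 regions found in all 10 lists, in percentiles, with the line of equality. Coloured points are the 346 regions called higher in liver and the 444 called higher in heart.

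The share of regions with H3K27ac differed between the 2 called groups, in opposite directions in liver and heart libraries. At the 346 regions higher in liver, an H3K27ac peak was found in 96.4% ± 1.89 of them in liver libraries and 78.2% ± 14.4 in heart libraries (SD, n = 5 each). At the 444 regions higher in heart the shares were 62.2% ± 6.36 in liver and 91.8% ± 6.23 in heart. The share at the regions higher in liver minus the share at those higher in heart was 34.2 ± 4.59 points in liver libraries and -13.7 ± 8.21 points in heart libraries, a difference of 47.8 points (two-sided exact permutation test over 5 and 5 libraries, p = 0.00794, the smallest possible, a single test with no adjustment). That test exchanges libraries as if they were separate animals. With the 4 paired animals as a block the difference was 46.6 points (exact permutation p = 0.125, the smallest possible), and at the 28 regions called among the top 32893 peaks it was 17.1 points (exact permutation p = 0.00794). The H3K27ac libraries were not used in the ranking, though they came from the same animals. At the background of all 7690 regions the shares were 67.6% in liver and 71.1% in heart. In liver libraries the regions higher in heart, at 62.2%, lay below this background. In heart libraries the regions higher in liver, at 78.2%, lay above it, in each of the 5 lists. Heart H3K27ac was therefore not lower than background where H3K4me1 ranked lower in heart.

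Liver factors followed the order seen for H3K27ac in liver libraries. CEBPA in DMR4 had a peak at 72.5% (67.6% to 77.0%) of the regions higher in liver, 37.0% of all tested and 10.1% (7.66% to 13.3%) of those higher in heart. In DMR1 CEBPA was at 39.0%, 14.6% and 4.05%, RXRA at 56.4%, 20.7% and 4.95%, and FOXA1 at 26.6%, 9.02% and 1.35% of the same groups. RXRA in DMR4 was at 85.8%, 42.7% and 14.6%, HNF4A at 72.8%, 30.4% and 13.5%, FOXA1 in DMR4 at 30.1%, 10.5% and 2.48%, and HNF6 at 21.1%, 12.7% and 9.91%. TBX5 was at 28.9% (24.4% to 33.9%) of the regions higher in liver and 30.0% (25.9% to 34.4%) of those higher in heart, against 20.5% of all tested, so its single list did not separate them. H3K4me3 was found at 31.2% of the regions higher in liver and 10.8% of those higher in heart in liver lists (n = 2), and at 19.1% and 22.9% in heart lists (n = 5). Over all tested regions it was at 31.8% in liver lists and 31.8% in heart lists. The 31.2% was thus close to the background, and the other shares lay below it. Peak width moved too: the median over regions of the width in liver lists was 2562 bases at the regions higher in liver and 669 at those higher in heart, and in heart lists 704 and 1708 bases. The shares were counted over the whole region, the same for liver and heart lists, and not over these peaks. The part of region length in the shares was not tested.

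The largest rank difference towards liver with no overlap was at KN123295.1:5381-14317. Its folds were 9.88, 14.7, 20.6, 21.4 and 17.1 in liver DMR1, DMR2, DMR3, DMR4 and DMR6 and 2.40, 4.03, 5.45, 4.06 and 3.78 in heart DMR1, DMR2, DMR3, DMR4 and DMR11, and the mean rank was 81.2 percentiles higher in liver (score difference 3.59 ± 0.498 SE, limma adjusted p = 5.91e-05). It had H3K27ac in all 10 H3K27ac lists, no H3K4me3 peak and a peak in all 8 liver factor lists, but none of TBX5. KN123304.1:13261-14230 had folds of 9.53 to 17.6 in liver and 2.49 to 4.51 in heart, with peaks of HNF4A and RXRA. KN122438.1:1-3868, at the start of its scaffold, had 8.38 to 25.4 in liver and 2.69 to 5.80 in heart, with peaks in 7 of 8 liver factor lists and of TBX5. Both had H3K27ac in all 10 lists. The widest region called for liver, KN122228.1:6456740-6480202 with 23463 bases, had folds of 14.3 to 24.8 in liver and 5.94 to 10.9 in heart (limma adjusted p = 0.00217).

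Towards heart the largest difference was at KN122888.1:793800-799653. Its folds were 4.68, 3.53, 4.68, 4.47 and 5.04 in the 5 liver lists and 10.1, 16.0, 9.96, 9.23 and 7.58 in the 5 heart lists, in the order of animals given above, and the mean rank was 84.6 percentiles lower in liver (rank difference -84.6, score difference -3.15 ± 0.423 SE, limma adjusted p = 4.67e-05). H3K27ac was found there in 5 of 5 heart and 4 of 5 liver lists, and HNF4A and RXRA of DMR4 also had a peak. KN124946.1:1606521-1609874 had folds of 4.03 to 5.63 in liver and 8.11 to 16.0 in heart, with a TBX5 peak and H3K27ac in 5 of 5 heart and 1 of 5 liver lists. KN121895.1:2109987-2118720 had 4.38 to 4.83 in liver and 7.44 to 13.3 in heart, with a TBX5 peak, H3K27ac in 5 heart and 3 liver lists, and H3K4me3 in 3 of 5 heart and 0 of 2 liver lists. At all 3 the widest liver peak was 1641 bases and the heart peaks reached 6621 bases. The widest region called for heart, KN121670.1:1477761-1495637 with 17877 bases, had folds of 6.44 to 7.07 in liver and 6.12 to 13.5 in heart (limma adjusted p = 0.0237), and lost its call without liver DMR2, liver DMR4 or heart DMR2 (adjusted p of 0.0503, 0.0603 and 0.0774).

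The strongest regions of both tissues together were wide domains. They were chosen for a high fold in all 10 lists, which places them near the top in both tissues. No test of a rank difference is therefore given for them. A longer region can hold more peaks from which its highest fold is taken. KN122247.1:897000-922385, 25386 bases long, had folds of 13.5 to 17.9 in liver and 12.2 to 17.3 in heart. KN122207.1:581298-600536 had 14.8 to 24.5 in liver and 8.69 to 12.4 in heart, with peaks in all 8 liver factor lists and of TBX5. KN121537.1:5071870-5092477 had 13.7 to 19.1 in liver and 8.76 to 14.0 in heart. The widest region of all 10 lists, KN124375.1:2321944-2365021 with 43078 bases, contained the longest H3K4me1 peak of the lists, 38481 bases in liver DMR1, and peaks of 3930 to 13956 bases in heart (limma adjusted p = 0.798). Its fold was 7.56 in liver DMR2 and 17.4 to 22.2 in the other 4 livers. All 4 had H3K27ac in all 10 H3K27ac lists.

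The windows of 100 kb richest in regions of a single tissue are given as a description. Over 19289 windows, the median was 3 liver-only and 1 heart-only regions and the 99th percentile 22.1 and 21. The window KN123195.1:1-100000 held 48 liver-only and 0 heart-only regions, and KN122207.1:3400001-3500000 held 46 and 1. The 2 windows with the most heart-only regions were neighbours, KN122397.1:4400001-4500000 with 54 and KN122397.1:4500001-4600000 with 53, and both held 0 liver-only regions.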

How the data were processed

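Peaks were called per library against a single input library, as the names of the deposited files show. The deposited lists give positions, fold enrichment as a linear ratio over background, and −log10 p and −log10 q values, all as the authors' caller wrote them. MACS2 is named in the submitters' processing notes. For its version, the aligner and read filters, each is not given in the sources used here. File names give the build DMR_v1.0. Replicates were not pooled. The lowest −log10 q in the H3K4me1 lists was 1.30.

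The members and lists were chosen with earlier results of these data known. Everything else was computed here in SciPy 1.17.1, pandas 2.3.3 and NumPy 2.4.6 under Python 3.11.15, with Matplotlib 3.10.9 for plots. Fold and significance served to rank peaks within a list or to describe named regions. Peaks overlapping by at least 50% of the shorter were matched. Found in the other tissue meant at least 2 of its 5 lists, and single-tissue meant 0. Tests were two-sided exact permutations with 252 arrangements of the tissue labels (6 comparisons) or 64 sign flips over 6 animals (3 contrasts), with Benjamini-Hochberg adjustment within each family. Animals with both tissues pair the samples, since the labels name the same animal. Ranks in all 10 lists were tested with limma 3.58.1 in R 4.3.3, with a mean-variance trend, on normal scores, with a threshold of 0.05. That step was tested on simulated data. Named regions were those with the highest mean percentile of fold in each class (3 each), the 3 largest rank differences in each direction among called regions without overlap, the widest region of each class, and the 2 windows of 100 kb richest in regions of each tissue. Alternatives covered overlap, number of lists, significance, equal numbers of peaks, scaffold length, library series, block and each library left out, and 5 were added after seeing the data.

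No gene was assigned, because the annotation at hand belongs to another build, and the planned cell type markers and sequences were not used here.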

Additional observations from a re-analysis of the deposited data

Results flagged for a closer look

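In heart DMR11 the highest fold of any peak was 65.5, both among all peaks and among equally many top peaks, since its list set that number. The other 4 heart lists reached 14.4 to 23.3, and the gap to them set this library apart. The peak spans 592 bases at KN122825.1:4226038-4226629, and no other list had a peak there. The second highest fold of that list was 32.0.

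Liver DMR2 had a median fold of 4.32 over all peaks, below the 4.86 to 5.01 of the other 4 liver lists. It is the longest liver list with 165394 peaks. Liver DMR6, the only female, had 26.6% of its peaks in the heart, below the 28.5% to 29.1% of the other 4 livers. Over 38 groups of 5 libraries checked in this way 4 values stood apart. The highest fold of heart DMR11 was counted under both numbers of peaks, and the groups share libraries. The number expected by chance is not given here.

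The width contrast between peaks found in both tissues and peaks of a single tissue was larger in liver than in heart by 0.25 on the log2 scale. It is listed because this difference itself passed the exact permutation test, with the limits given above.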

How the results depend on the processing

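The 11 comparisons with a test, and the H3K27ac difference at rank-shifted regions, were recomputed under the alternatives, and none changed direction while called. The shares of H3K27ac, H3K4me3 and factor peaks by region class had no alternatives, and the repeatability within a tissue was given for all and top peaks only. The exception in sign was the uncalled tissue difference in the H3K27ac contrast, which was 0.115 points among peaks also found in their own tissue. With the replicate block, the 4 animals with both tissues, no test could pass and the paired values were 0.59 for width contrast, 11.9 percentiles for fold contrast, 13.1 points for H3K27ac contrast, 0.35 for peak width, 0.75 for covered bases, -13.1 points for the share in the other tissue 0.21 for the tissue difference in width contrast and 46.6 points for H3K27ac at rank-shifted regions. Within library series, peak width was 0.31. Keeping peaks with −log10 q from 4 upwards, the tissue difference in fold contrast was 4.90 percentiles and passed, as it did at 5.23 with at least 3 lists of the other tissue and at 3.70 with equal numbers of top peaks. Equal numbers also gave an H3K27ac contrast of 1.44 points (lost), a tissue difference in it of -9.07 points (gained) and 28 rank calls. With heart DMR11 left out as well, an alternative chosen after seeing the data, the contrasts were 0.53, 9.86 percentiles and 7.28 points, with 5 animals and p of 0.0625, the tissue differences were 3.02 percentiles and -7.87 points (both gained), and 351 regions were called. Other alternatives added then were the summit rule (tissue difference in width contrast 0.046) and peak width at regions of all 10 lists (0.68, adjusted p = 0.0833). Overlap of 1 base gave 0.15 for the tissue difference in width contrast, and ranking by significance 1468 rank calls.

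Leaving out 1 library gave 0.28 to 0.42 for peak width, 0.62 to 1.03 for covered bases, -25.5 to -11.3 points for the share in the other tissue, 0.52 to 0.61 for width contrast, 10.9 to 12.7 percentiles for fold contrast, 10.0 to 12.9 points for H3K27ac contrast, 0.21 to 0.38, 2.26 to 5.22 percentiles and -5.60 to -0.692 points for their tissue differences, 45.9 to 53.0 points for H3K27ac at rank-shifted regions and 580 to 1018 rank calls, and leaving out 1 animal gave 0.00174 to 0.00791 for the same-animal overlap. The cause of these changes was not tested, except that fewer animals raise the smallest possible p. Depth is unknown, so absence of a peak is not absence of the mark.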
